A study of Homo sapiens with 2 samples.

Results

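The miR-29 family was described in hCMEC/D3, an immortalised line of human brain microvascular endothelial cells that stands in for the blood-brain barrier in culture. Small RNA was sequenced from 2 libraries of this line, labelled replicate 2 and replicate 8. They form 1 group: the labels name no treatment and no second genotype, and do not say whether the replicates came from separate cultures, so the spread between them may be technical. All values thus come from 1 immortalised line. Members were all rows of the count table whose precursor is hsa-mir-29a, hsa-mir-29b-1, hsa-mir-29b-2 or hsa-mir-29c, with both arms of each hairpin. This gave 8 of 2363 rows, 7 of 2042 mature names and 4 of 1600 hairpins.

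A miRNA hairpin is cut into a duplex of a 5p and a 3p arm, of which one arm is usually kept by an Argonaute protein as the guide and the other is lost. The guide finds messenger RNAs mainly through its seed, bases 2 to 8 from the 5′ end. The 3p arms of miR-29 are the guides known from most tissues, and their known targets include messages for collagens, elastin and other proteins of the extracellular matrix. In the brain, endothelial cells rest on a basement membrane built of such proteins.

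The 3p arms are shown first because they carry the family's common seed, marked in capitals. Sequences are from RefSeq (GRCh38.p14 table), where all 7 mature names and all 4 hairpins were found.
miR-29a-3p: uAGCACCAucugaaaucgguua
miR-29b-3p: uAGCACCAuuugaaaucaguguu
miR-29c-3p: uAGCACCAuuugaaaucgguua

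The seed AGCACCA occurred in these 3 names and in no other of the 2370 distinct mature names of that table. Counted from the 5′ end, miR-29a-3p and miR-29c-3p are 22 bases long and differ by 1 substitution, C10U, where the base of miR-29a-3p comes first. The first 17 bases of miR-29b-3p and miR-29c-3p are identical. Over the 22 bases compared, these arms differ by A18G, G21U and U22A, with the base of miR-29b-3p first. miR-29b-3p is 23 bases long and ends in a further U. The 3′ end of miR-29b-3p is AGUGUU, a hexamer known as a signal for import of this miRNA into the nucleus. It ended 2 of the 2370 names, the other being miR-519e-3p, named after the search.

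The 5p arms have no common seed, and each of their 4 seeds, again in capitals, was found in no other name of the table.
miR-29a-5p: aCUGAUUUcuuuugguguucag
miR-29b-1-5p: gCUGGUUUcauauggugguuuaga
miR-29b-2-5p: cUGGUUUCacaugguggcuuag
miR-29c-5p: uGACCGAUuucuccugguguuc

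The 5p arms of the miR-29b hairpins overlap with an offset of 1 base, so their seeds are shifted against each other. Over the 22 bases that align, they differ by U11C and U19C, counted from the 5′ end of miR-29b-1-5p. With its 5p arm, each hairpin therefore left a sequence of its own in the libraries, whereas the 3p arm of miR-29b is the same from either hairpin.

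The hairpins are shown whole, with the mature arms in capitals, because the arms are compared hairpin by hairpin further on.
MIR29A: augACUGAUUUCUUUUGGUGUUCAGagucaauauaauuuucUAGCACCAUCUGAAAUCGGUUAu
MIR29B1: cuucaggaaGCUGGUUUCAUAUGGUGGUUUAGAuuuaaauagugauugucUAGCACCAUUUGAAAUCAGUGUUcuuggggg
MIR29B2: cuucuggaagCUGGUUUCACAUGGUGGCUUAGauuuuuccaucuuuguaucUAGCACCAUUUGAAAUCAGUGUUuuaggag
MIR29C: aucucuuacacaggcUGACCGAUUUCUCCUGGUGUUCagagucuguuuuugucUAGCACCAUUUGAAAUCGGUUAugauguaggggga

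Matched to the GRCh37 genome, the hairpins lie in 2 pairs, all on the minus strand. MIR29A is on chromosome 7 at 130561506 to 130561569, and MIR29B1 is at 130562218 to 130562298, with 648 bases between them. Both lie within the long noncoding RNA gene LINC-PINT on the same strand, where 1 of 12 spanning transcripts has an exon at each hairpin and the others an intron. LINC00513 runs across them on the opposite strand, with no exon there in its 2 spanning transcripts. MIR29C is on chromosome 1 at 207975197 to 207975284, and MIR29B2 is at 207975788 to 207975868, with 503 bases between them. They lie within MIR29B2CHG, a long noncoding host gene, in which 1 of 5 spanning transcripts has an exon at each hairpin. Of the 7 mature sequences, 6 matched the genome exactly at 1 place and miR-29b-3p at 2, the places being in these hairpins.

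The table's counts follow these sequences. The rows of miR-29b-3p for its 2 hairpins held the same numbers, 260 in replicate 2 and 221 in replicate 8, so the reads were listed at both hairpins and are counted once here. No member had the same counts as a mature name outside the family. How the authors' counting treated mismatches is not given in the sources used here. Reads of miR-29a-3p and miR-29c-3p can be told apart by 1 base only, so their separate levels are uncertain to that extent. miR-29b-3p and miR-29c-3p are alike up to base 17, so a read that ends before base 21 also separates them by 1 base at most.

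Replicate 2 held 2721287 counts and replicate 8 held 2727675 after each mature name was reduced to 1 row, and levels are given in CPM (counts scaled to a common sum over these totals). At this depth 3 counts, the most that a count of 0 allows, correspond to 1.10 CPM in either library. As endothelial markers both arms of miR-126 were read. miR-126-3p was the most abundant name in the table at 109395 and 115057 CPM, while miR-126-5p had 709 and 678 CPM. Because the markers were chosen with earlier results of these data known, these levels are no independent check of cell identity. Of 15 markers listed for mural, muscle, blood, neuronal and epithelial cells, 7 reached 10 counts in both, against 26.6% of all 2042 names. They included neuronal miR-9-5p (117 counts in replicate 2 and 92 in replicate 8), blood miR-451a (43 and 19) and muscle miR-133a (21 and 16). Epithelial miR-200b-3p (76 and 27) and miR-200c-3p (118 and 85) were also among them, as was the mural pair described next. The markers miR-223-3p, miR-142-3p, miR-144-3p and miR-141-3p had no count in either library. The mural pair miR-143-3p and miR-145-5p, miRNAs of smooth muscle and pericytes, summed to 835 CPM in replicate 2 and 393 CPM in replicate 8. The 15 markers together summed to 983 and 484 CPM.

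All 7 miR-29 names were detected, which asks for 10 counts or more in each library, against a background of 26.6% of all 2042 names. Together they held 7288 counts in replicate 2 and 6559 in replicate 8. The family's share was 0.268% of all counts in replicate 2, with a 95% Wilson interval of 0.262 to 0.274. It was 0.240% in replicate 8, with 0.235 to 0.246. The summed level was 2541 ± 193 CPM (SD, n = 2). No molecular identifiers are named in the labels' protocols, so a molecule can be read more than once and the intervals here cover counting error only.

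The family held 1 abundant name and 6 scarce ones. The guide miR-29a-3p had 6509 counts in replicate 2 and 5813 in replicate 8, which is 2392 and 2131 CPM, or 2261 ± 184 CPM (SD, n = 2). It stood at rank 53 of all names in replicate 2 and 54 in replicate 8, with 51 names above it in both. Its share of the family's counts was 89.3% in replicate 2, inside the 95% Wilson interval of the other library (87.8 to 89.4), whose own share was 88.6%.

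The next name in mean level, miR-29b-3p, stood at 95.5 CPM in replicate 2 and 81.0 in replicate 8, and was 25.6-fold below miR-29a-3p on the mean. The 5p arm miR-29c-5p had 190 and 260 counts, or 69.8 and 95.3 CPM. Between these names the order turned over: miR-29b-3p was the higher in replicate 2 and miR-29c-5p in replicate 8. The arm miR-29b-2-5p had 217 and 149 counts, or 79.7 and 54.6 CPM, and was above miR-29c-5p in replicate 2 and below it in replicate 8. The means of miR-29b-3p, miR-29c-5p and miR-29b-2-5p were 88.3 ± 10.3, 82.6 ± 18.0 and 67.2 ± 17.8 CPM (SD, n = 2). miR-29c-5p changed place with both of the others, whereas miR-29b-3p was above miR-29b-2-5p in both libraries. The Wilson intervals of this pair overlapped in replicate 2 (84.6 to 107.9 against 69.8 to 91.1 CPM) and not in replicate 8 (71.0 to 92.4 against 46.5 to 64.1 CPM).

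The 3p arm miR-29c-3p followed at 66 and 62 counts, or 24.3 and 22.7 CPM, below all 3 of these names in both libraries. It was 96.3-fold below miR-29a-3p on the mean. The arm miR-29b-1-5p had 28 and 42 counts, or 10.3 and 15.4 CPM. It was below miR-29c-3p in both libraries, but their Wilson intervals overlapped in replicate 8 (11.4 to 20.8 against 17.7 to 29.1 CPM). The lowest of the family was miR-29a-5p, from the hairpin of the most abundant name, with 18 and 12 counts, or 6.61 and 4.40 CPM. Its interval overlapped that of miR-29b-1-5p in replicate 2 (4.18 to 10.5 against 7.12 to 14.9 CPM) and not in replicate 8. Levels of different miRNAs within a library also carry the sequence preference of adaptor ligation, for which these data hold no measure.

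**Figure D1:**
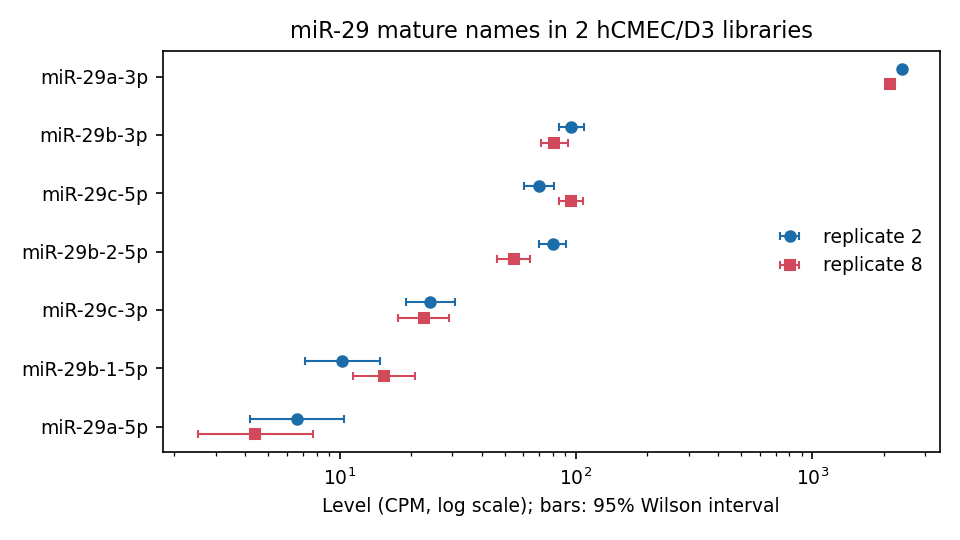
Level of each miR-29 mature name in CPM (log axis), with 1 point for each library and bars for the 95% Wilson interval. miR-29a-3p lies at 2392 and 2131 CPM, the 6 other names lie at 95.5 CPM or less, and miR-29c-5p changes place with miR-29b-3p and miR-29b-2-5p between the libraries.

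The arms were then compared within each hairpin, which asks how far the known guide prevailed. With all miR-29b-3p reads given to each miR-29b hairpin, the share of the 3p arm fell in steps from hsa-mir-29a to hsa-mir-29c. For hsa-mir-29a it was 99.7% in replicate 2, with a 95% Wilson interval of 99.6 to 99.8, and 99.8% in replicate 8, with 99.6 to 99.9. The 3p arm of this hairpin thus exceeded the 5p arm 362-fold in replicate 2 and 484-fold in replicate 8.

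With all miR-29b-3p reads given to it, hsa-mir-29b-1 had a 3p share of 90.3% in replicate 2 (86.3 to 93.2) and 84.0% in replicate 8 (79.1 to 88.0). In the same way hsa-mir-29b-2 had 54.5% (50.02 to 58.9) and 59.7% (54.7 to 64.6). These values are upper limits, since each miR-29b-3p read came from only 1 of the hairpins. With the reads split equally, an alternative chosen after the data were seen, the mean share was 77.4% for hsa-mir-29b-1 and 40.02% for hsa-mir-29b-2. Whether the 3p arm was the more abundant at hsa-mir-29b-2 therefore depends on how its reads are divided. So does the order of the miR-29b hairpins against each other and against hsa-mir-29c.

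By the counts as deposited, the 5p arm was the more abundant at hsa-mir-29c in both libraries. The 3p share was 25.8% in replicate 2 (20.8 to 31.5), from 66 counts of the 3p arm and 190 of the 5p arm. In replicate 8 it was 19.3% (15.3 to 23.9), from 62 and 260 counts. Both intervals lie below 50%, and both lie apart from those given above for the other miR-29 hairpins, where the miR-29b hairpins stand at their upper limits.

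For comparison, 212 hairpins had both arms in the table and 50 counts or more for the sum of the arms in replicate 2 and also in replicate 8. In 67.9% of them 1 arm held over 90% of the reads in both libraries, and hsa-mir-29a was the only miR-29 hairpin among these. In 64 of the 212, both arms held between 10% and 90% in both libraries, among them hsa-mir-29b-2 and hsa-mir-29c. The 3p arm was the more abundant in both libraries in 94 hairpins and the 5p arm in 114. Hairpins that share a mature arm appear here once each and are not independent. All miR-29b-3p reads were given to each miR-29b hairpin here too, so the classes of these hairpins depend on that choice.

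**Figure D2:**
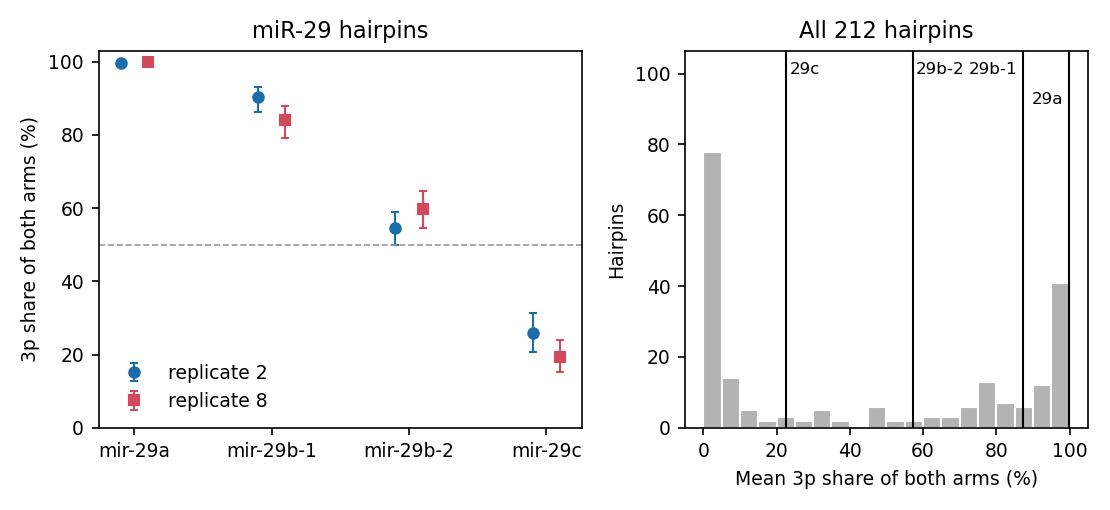
Left, share of the 3p arm among the counts of both arms (percent) for each miR-29 hairpin, with 1 point for each library, bars for the 95% Wilson interval and a dashed line at 50%; right, histogram of the mean 3p share over 212 hairpins, with lines at the miR-29 hairpins. The miR-29 hairpins run from 99.8% for hsa-mir-29a to 22.5% for hsa-mir-29c on the mean, and miR-29b-3p reads are given to both of its hairpins.

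The 2 loci were compared through the arms that belong to only 1 hairpin. By 3p arms chromosome 7 led: miR-29a-3p exceeded miR-29c-3p 98.6-fold in replicate 2 and 93.8-fold in replicate 8. By 5p arms of the same hairpins chromosome 1 led: miR-29c-5p exceeded miR-29a-5p 10.6-fold in replicate 2 and 21.7-fold in replicate 8. The order of the loci was thus opposite for the arms, in both libraries. The 3p ratios rest on telling miR-29a-3p and miR-29c-3p apart by 1 base, an uncertainty that the intervals given next do not cover. Of the 3p counts of this pair miR-29c took 1.004% in replicate 2, with a 95% Wilson interval of 0.790 to 1.27, and 1.06% in replicate 8, with 0.824 to 1.35. Of their 5p counts it took 91.3% (86.7 to 94.5) and 95.6% (92.4 to 97.5).

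**Figure D3:**
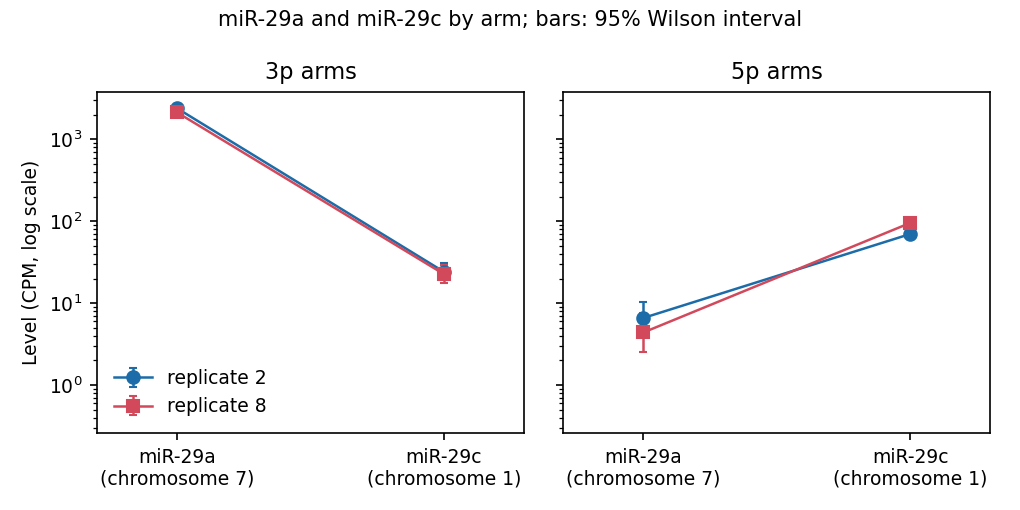
Levels of miR-29a (chromosome 7) and miR-29c (chromosome 1) in CPM (log axis) for the 3p arms, left, and the 5p arms, right, with a line for each library and bars for the 95% Wilson interval. The lines fall from miR-29a to miR-29c for the 3p arms and rise for the 5p arms.

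The 5p arms of miR-29b leaned the same way. miR-29b-2-5p, from chromosome 1, exceeded miR-29b-1-5p, from chromosome 7, 7.75-fold in replicate 2 and 3.55-fold in replicate 8. The share of miR-29b-1-5p in this pair was 11.4% in replicate 2, with a 95% Wilson interval of 8.03 to 16.0, and 22.0% in replicate 8, with 16.7 to 28.4. These intervals do not overlap. Over all 4 of the 5p arms, chromosome 1 gave 407 of 453 counts in replicate 2, or 89.8% (86.7 to 92.3). In replicate 8 it gave 409 of 463, or 88.3% (85.1 to 91.0). The transcription of the loci was not measured. In the whole family the 3p arms held 93.8% of the counts in replicate 2 (93.2 to 94.3) and 92.9% in replicate 8 (92.3 to 93.5).

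Differences between the libraries were tested for each name with a two-sided exact binomial test on its counts, with Benjamini-Hochberg adjustment over the 695 names with at least 10 summed counts. The test compares 2 libraries, not conditions, and holds counting error only. It called 3 of the 7 miR-29 names, against 34.2% of all names tested. Of these 3, 1 was higher in replicate 8 and 2 were lower, against 10.8% and 23.5% of all names. The median log2 ratio of replicate 8 over replicate 2 was -0.17 for the 7 names and -0.11 for all 695. The family's share of calls was thus near the background. Of the markers of other cell types, 9 of 15 could be tested in the same way, and 5 were lower and 0 higher in replicate 8. Their part in the differences of the miR-29 names was not tested.

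The guide miR-29a-3p was lower in replicate 8, its log2 ratio being -0.17 (95% interval -0.22 to -0.12, adjusted p = 1.4e-09 by the exact binomial test). This shift is close to the median of all names, and with library sizes scaled by TMM, which raise every log2 ratio by 0.10, it shrank to -0.07 (adjusted p = 0.030). The other names that passed moved further, in opposite directions. miR-29b-2-5p was lower in replicate 8, its log2 ratio being -0.54 (-0.86 to -0.24) at an exact binomial adjusted p of 0.0016. Its neighbour on the chromosome, miR-29c-5p, was higher, at 0.45 (0.17 to 0.73) and an exact binomial adjusted p of 0.0046. Among the 193 names with 100 summed counts or more and up to 1000, 42 other names had at least the absolute log2 ratio of miR-29b-2-5p and 62 at least that of miR-29c-5p.

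The 4 remaining names did not pass the test. The log2 ratio was -0.24 for miR-29b-3p (-0.50 to 0.03) and -0.09 for miR-29c-3p (-0.62 to 0.43), whose sign turned to 0.01 with TMM sizes. For miR-29b-1-5p it was 0.57 (-0.14 to 1.33) and for miR-29a-5p -0.57 (-1.77 to 0.55). With 70 and 30 summed counts, the last pair had the widest intervals of the family.

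**Figure D4:**
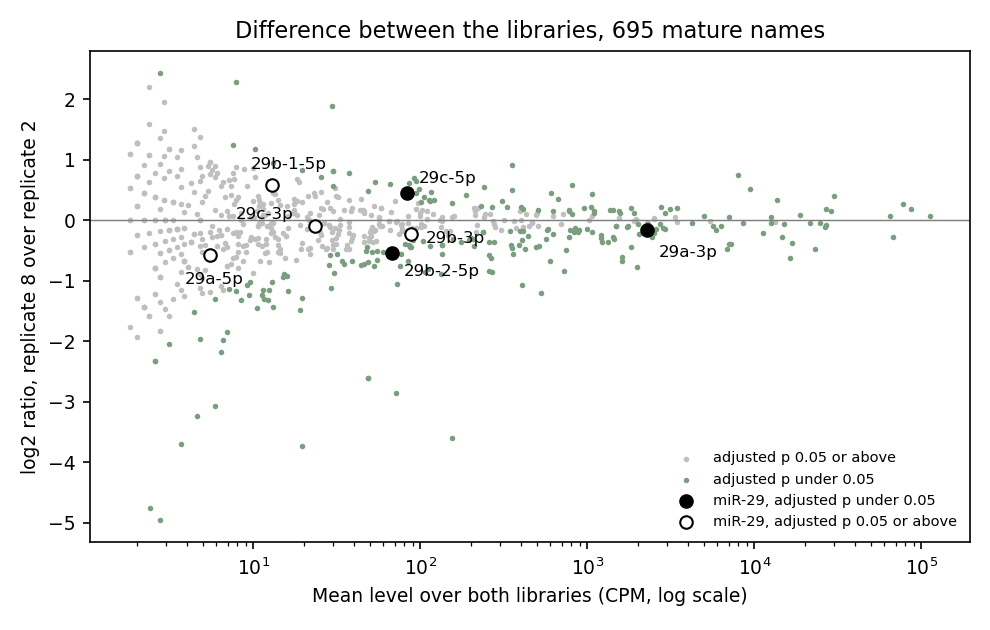
Log2 ratio of replicate 8 over replicate 2 against the mean level in CPM (log axis) for 695 mature names, with names past the adjusted threshold of 0.05 in green and miR-29 names as large points, filled where they passed. miR-29c-5p lies above 0, miR-29a-3p and miR-29b-2-5p lie below it, and all 3 lie among names of similar level.

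The share of the 3p arm was compared between the libraries by Fisher's exact test over the 212 hairpins, with Benjamini-Hochberg adjustment. It called 0 of the 4 miR-29 hairpins, against 18.9% of all hairpins, and 1 of the 4 had an unadjusted p under 0.05. That hairpin, hsa-mir-29b-1, changed by -6.25 percentage points (exact p = 0.030, adjusted p = 0.13). For hsa-mir-29c the change was -6.53 percentage points (exact p = 0.069, adjusted p = 0.24), for hsa-mir-29b-2 it was 5.22 (exact p = 0.14, adjusted p = 0.39), and for hsa-mir-29a it was 0.07. All miR-29b-3p reads were again given to each miR-29b hairpin, so the tests of these hairpins share reads and are not independent. The true division of those reads, and thus the true change at each, is not known. The median absolute change over all 212 hairpins was 0.76 percentage points, and 15 other hairpins changed by at least as much as hsa-mir-29c.

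Families whose hairpins also lie at several loci were set beside miR-29 for scale. The miR-30 family held 4.15% ± 0.231 of the counts (SD, n = 2), the miR-181 family 2.81% ± 0.102 and the miR-26 family 1.91% ± 0.0706, against 0.254% ± 0.0193 for miR-29. In each family 1 name led. Its share of the family was 97.5% ± 0.0867 for miR-26a-5p, 89.0% ± 0.484 for miR-29a-3p, 76.5% ± 0.741 for miR-181a-5p and 64.6% ± 2.23 for miR-30a-5p. The leading name exceeded the next of its family 40.2-fold in miR-26 and 25.6-fold in miR-29, but 3.63-fold in miR-181 and 3.14-fold in miR-30. Unlike miR-29, the others were led by 5p arms: of the counts of names with a stated arm, the 3p arms held 7.64% ± 0.175 in miR-30, 1.01% ± 0.0906 in miR-181 and 0.105% ± 0.0367 in miR-26. This leaves out miR-181d, which the table lists without an arm.

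Other miRNAs tied to matrix and fibrosis were taken from a list of 12. Of these, 9 were detected in both libraries and 11 could be tested. By the exact binomial test 4 were higher and 5 lower in replicate 8, with a median log2 ratio of -0.37 over the 11. Over all 695 names tested 10.8% were higher and 23.5% lower, with a median of -0.11, and 26.6% of all names were detected. The list holds names of very high count, in which this test can call small differences: the log2 ratio of miR-26a-5p was 0.08. The most abundant was miR-21-5p, which is known to be raised in fibrosis, at 70301 and 84406 CPM. Of the miRNAs known to repress connective tissue growth factor, miR-30a-5p was at 25101 and 28522 CPM and miR-30c-5p at 2043 and 1948 CPM, whereas miR-133a had 21 and 16 counts. The level of miR-199a-5p was 36.4 and 2.57 CPM, and the heart miRNA miR-208a had no count.

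The names nearest to each 3p arm were found by Euclidean distance in log2(CPM + 1) over the 2 libraries, which with n = 2 measures little more than level. For miR-29a-3p they were miR-1180 (distance 0.08), miR-652-3p (0.09) and miR-185-5p (0.17). For miR-29b-3p they were miR-1287, miR-937-3p and miR-365b-5p, at distances from 0.07 to 0.08. For miR-29c-3p they were miR-3928, miR-6724-5p and miR-96-5p, at distances from 0.15 to 0.17. No other miR-29 name was eligible under this rule.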

How the data were processed

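Per the labels' protocols, total RNA was taken up in a column kit, adaptors were ligated to small RNAs, and libraries were amplified by PCR and size-selected on a gel. The submitters' processing notes name CASAVA 1.9, FastQC, cutadapt, Bowtie 0.12.7 and the build hg19, with no role or order. The authors deposited raw counts and RPM (reads scaled to a fixed sum) per row of mature name and precursor, per the file headers. Counts were used as deposited, and the RPM values served as an alternative scale. The miRBase release and the counter are not given in the sources used here.

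Where several rows carried 1 mature name, the row of highest mean was kept, and CPM were computed on these totals. Python 3.11.15 with scipy 1.17.1 gave intervals (95% Wilson for shares and levels, exact for ratios), exact binomial and Fisher tests. Log2 ratios have 0.5 counts added. TMM sizes came from edgeR 4.0.16 and size factors from DESeq2 1.42.0. edgeR's quasi-likelihood test has no contrast with 1 group. The tests were run on simulated counts that held counting error only, which does not show how they behave where libraries also differ in other ways. Members and lists were chosen with earlier results of these data known. Named were all member rows, the 3 nearest names of each 3p arm and examples from the fixed lists. The test of arm shares was added after the values were seen. Alternatives covered repeated rows, denominators, scaling, filters, pseudocounts and each library left out.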

Additional observations from a re-analysis of the deposited data

How the results depend on the processing

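Of 29 recomputed summary values, 23 stayed within 1 SD of the libraries or, for counts of names, within 1.5 times, and 6 moved. The 23 include values that could not move. Such were the shares without 1 library, and the names detected at 1 count, in a single library or with repeated rows summed. Also fixed were the within-family shares from the first row of each name, because both miR-29b-3p rows held the same counts. The family's share of counts was 0.225% with repeated rows summed, 0.218% with the total over all rows, 0.286% with the total without miR-126-3p and 0.217% on the deposited RPM scale, which was chosen after seeing the data. With repeated rows summed the share of miR-29a-3p in the family was 86.0%. Each of these changes the denominator or counts a read at several hairpins. At least 100 counts in both libraries left 4 names detected. Without 1 library the family's share ranged from 0.240% to 0.268%, that of miR-29a-3p from 88.6% to 89.3%, that of the 3p arms from 92.9% to 93.8% and that of miR-29b-1-5p in its pair from 11.4% to 22.0%. With 2 libraries, a single one always lies within 1 SD of the mean, so these values show nothing about stability.

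The 3 names that differed between the libraries were the same with TMM sizes, DESeq2 size factors and either filter, and 4 passed with repeated rows summed, which counts each miR-29b-3p read at both hairpins. Over all names 75 were higher and 163 lower with total counts, 111 and 116 with TMM sizes, and 111 and 113 with DESeq2 size factors. The log2 ratio of miR-29c-3p turned from -0.09 to 0.0054 with TMM sizes and to 0.0094 with DESeq2 size factors. Depth limits miR-29a-5p and miR-29b-1-5p most. No paired analysis was possible because there is 1 group only.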

Other observations

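The first base of each arm, which the choice of members did not use, was set beside the arm shares. All 3 of the 3p names of miR-29 start with U. Of the 5p arms only miR-29c-5p does, so both arms of hsa-mir-29c start with U and the first base does not tell them apart. At this hairpin the 5p arm was the more abundant in both libraries by the counts as deposited. With miR-29b-3p reads split equally between their hairpins the same held for hsa-mir-29b-2, whose 3p share was then 37.5% and 42.6%. The other 5p arms start with A (miR-29a-5p), G (miR-29b-1-5p) and C (miR-29b-2-5p). Over 182 hairpins with sequences for both arms and the same leading arm in both libraries, the leading arm started with U in 56.0% and the lesser arm in 22.5%. Where exactly 1 arm started with U, in 97 hairpins, that arm led in 79. Both arms started with U in 23 hairpins, hsa-mir-29c among them, and in 13 of these 1 arm held over 90% in both libraries. The 182 hairpins include those of miR-29, and hairpins that share an arm are not independent. Here all miR-29b-3p reads were given to each miR-29b hairpin, so hsa-mir-29b-2 counts as led by its 3p arm. An equal split would reverse that. The comparison was made after the arm shares were seen, and no test was run.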
